A study of Mus musculus with 6 samples.

Results

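FGF ligands, receptors, co-factors, adaptors and feedback targets were described in the submandibular gland (SMG) of adult female mice as a set of 36 genes, out of 43280 rows of the gene count table. The genes were listed by name from what they are known to do, and each of the 36 symbols matched 1 row. Bulk RNA sequencing covered 6 libraries, 3 labelled wildtype (WT) and 3 labelled Hs3st3a1;3b1 DKO, which carry the numbers 1, 4 and 5 in both groups. No treatment or time course separates the groups, and no age beyond adult is given. Hs3st3a1 and Hs3st3b1 encode enzymes that add a 3-O-sulfate to heparan sulfate. According to the study's methods, the DKO animals carry a short frameshift deletion in the first exon of Hs3st3a1, made by zinc finger nuclease in embryos that already carried a LacZ cassette at Hs3st3b1, so that both lesions are inherited together. They were kept on a C57BL/6 background and bred by intercross of heterozygotes of several founder lines, with WT littermates as controls. The founder of each sequenced animal is not given in the sources used here.

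The inactivated genes did not separate the groups, and the libraries are therefore named by their labels. Hs3st3b1 had 171, 199 and 234 normalized counts in WT 1, WT 4 and WT 5 and 242, 125 and 218 in DKO 1, DKO 4 and DKO 5 (log2 fold change, DKO over WT, -0.04, SE 0.24, DESeq2 adjusted p = 0.976). Hs3st3a1 had 8 to 15 raw counts in every library, and a short deletion need not change the count of the whole gene. Whether the counted Hs3st3b1 reads lie outside the cassette was not tested, nor was whether any library is mislabelled, and each direction given here rests on the labels. Library totals ranged from 23674258 to 29611975 counts. Normalized counts are raw counts divided by the DESeq2 size factor of the library, and these factors ranged from 0.867 to 1.12. The glandular identity of the tissue was plain from its own markers, since the summed normalized counts of 8 acinar markers were at least 311300 and those of 8 duct markers at least 217732 in each library.

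Fibroblast growth factors are secreted proteins that bind receptor tyrosine kinases together with heparan sulfate, and the sulfation of that sugar chain sets which ligand and receptor pairs form. In the salivary gland, FGF10 and FGF7 from the mesenchyme signal through the epithelial form of FGFR2 during branching. Active receptors phosphorylate the adaptor FRS2 and drive the RAS and ERK cascade, which in turn induces its own inhibitors, the Sprouty, SPRED and dual specificity phosphatase proteins, and the ETS transcription factors ETV4 and ETV5.

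Promoter sequence is shown for 3 of the members with an unadjusted p under 0.05 that had the higher mean in the libraries labelled DKO. Dusp4, the other such member, had no promoter entry. The sequences are shown because ETS factors of the kind that Etv4 and Etv5 encode bind DNA at a GGAA core. The sequences are the 250 bases before the annotated start site, from RefSeq on GRCm38.p6, written 5′ to 3′ on the strand of the gene. Capitals mark CGGAA or its reverse complement TTCCG, and in Fgfrl1 the longer CCGGAAGT, which contains CGGAA.
Fgfrl1, chr5:108693979-108694228, plus strand: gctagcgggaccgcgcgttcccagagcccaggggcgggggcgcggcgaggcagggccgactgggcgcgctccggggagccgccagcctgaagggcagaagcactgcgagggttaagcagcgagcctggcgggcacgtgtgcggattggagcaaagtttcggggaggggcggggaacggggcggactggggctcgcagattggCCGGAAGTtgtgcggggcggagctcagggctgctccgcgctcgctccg
Dusp6, chr10:99262981-99263230, plus strand: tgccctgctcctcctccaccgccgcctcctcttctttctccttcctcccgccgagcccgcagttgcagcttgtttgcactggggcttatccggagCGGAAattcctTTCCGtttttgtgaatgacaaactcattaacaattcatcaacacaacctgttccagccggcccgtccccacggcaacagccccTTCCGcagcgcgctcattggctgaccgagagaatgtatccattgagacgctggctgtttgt
Etv5, chr16:22439571-22439820, minus strand: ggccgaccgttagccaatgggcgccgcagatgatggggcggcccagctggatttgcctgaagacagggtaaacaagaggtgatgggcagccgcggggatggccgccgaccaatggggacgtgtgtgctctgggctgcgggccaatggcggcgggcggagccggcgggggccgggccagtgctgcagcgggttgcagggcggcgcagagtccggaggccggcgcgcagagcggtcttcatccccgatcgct

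The Fgfrl1 window held 1 CCGGAAGT, whose first base is 48 bases before the start site. The Dusp6 window held 3 matches to CGGAA or TTCCG, with first bases 155, 144 and 61 bases before the start site. Neither of the 2 Etv5 start sites had a match. The search covered windows of the 250 bases before each start site, on both strands. Among all 32851 such windows, 25.2% held CGGAA or TTCCG and 2.88% held CCGGAAGT or ACTTCCGG. Of the 36 members, 29 had at least 1 window, 37 windows in all, and 12 of these held the shorter motif and 2 the longer one (Fgfrl1 and Frs2). A match is a stretch of letters and not a measured binding site.

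No member passed the threshold for a difference between the labelled groups. Of the 36 genes, 29 had at least 10 counts over the 6 libraries and were tested, and of these 26 received a DESeq2 adjusted p (not Fgf18, Fgf12 or Etv4). None of these had an adjusted p under 0.05, where 2.9% of the 18606 rows tested did (1.02% higher, 1.88% lower). edgeR and limma-voom called 0 of the 29 too, against 0.0537% and 0.0376% of all rows. At an unadjusted p under 0.05 there were 7 members, Fgfrl1, Dusp4, Dusp6 and Etv5 on the higher side in the libraries labelled DKO and Fgf1, Fgfr1 and Flrt2 on the lower side. Of all rows tested, 12.2% were past that mark, 4.92% on the higher and 7.26% on the lower side. These 7 are a larger share of the members than that of all rows, and the excess was not tested. The 3 WT and 3 DKO values did not overlap for 5 members, with Fgfrl1, Frs3, Spry4 and Dusp4 higher and Fgf2 lower in DKO. Over all rows the share without overlap was 20.3% (9.85% higher, 10.5% lower), so this count is no result about the members. Log2 fold changes were positive for 19 members and negative for 10, with a median of 0.05, beside 50.2% positive and a median of 0.0011 over all rows. Fold changes are relative to that median. With library totals as size factors the median of all rows moved to -0.23, and 8 of the 29 members were positive, beside 19.2% of all rows.

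**Figure D1:**
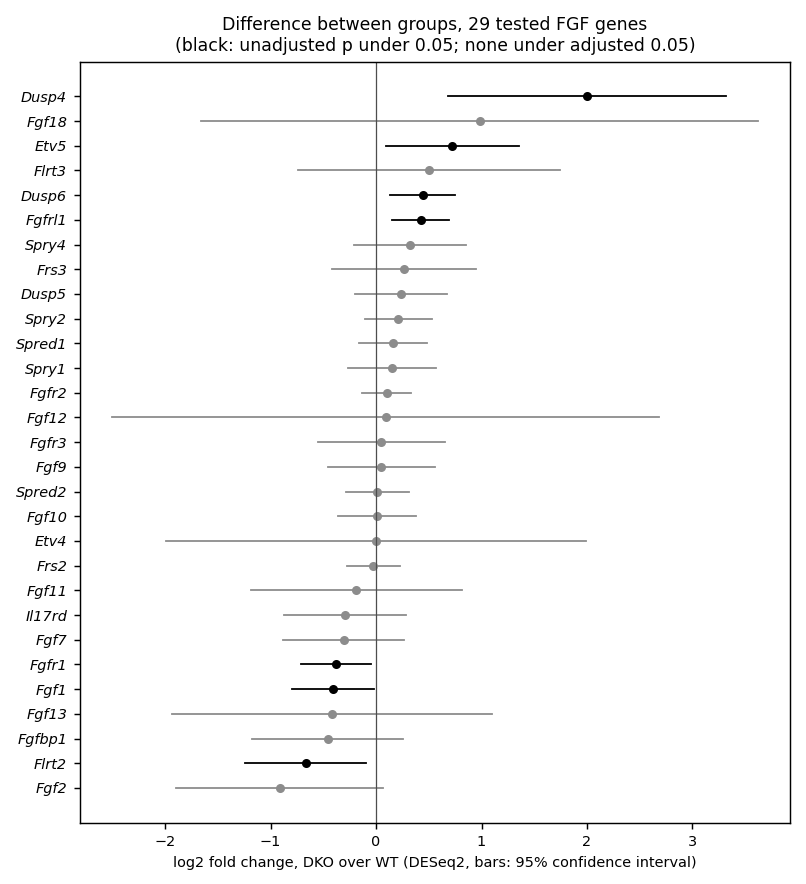
Log2 fold change, DKO over WT, of the 29 members tested, sorted by size, with bars for the 95% interval. The interval of 7 genes leaves out 0, and no gene passed the adjusted threshold.

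Levels of different genes were compared as RPKM, the count divided by the length of the exons and by the library total, averaged over the 6 libraries. The most abundant member was Dusp6, the ERK phosphatase, at 14.9 ± 2.52 RPKM (SD, n = 6). Fgfr2 followed at 7.24 ± 0.595, then Fgfrl1 at 5.29 ± 0.603, Spred1 at 5.27 ± 0.838, Fgf1 at 4.88 ± 1.76 and Spry2 at 4.88 ± 0.343. The last 4 of these lie within the SD of Fgfrl1 of one another, so their order is not resolved. Another 14 members lay between 3.40 (Dusp5) and 0.421 (Flrt2), and the rest below. These levels are scaled to the library total, whereas the comparison of the groups uses the size factors. The order also depends on the gene model, because with the length of the longest transcript Fgfr2 stood at 16.9, Dusp6 at 16.7 and Fgf1 at 6.69. Each gene's exons were taken from GENCODE M21, in which the Fgfr2 model shares 314 bases of exon with its neighbour Ctbp2, on the same strand.

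**Figure D2:**
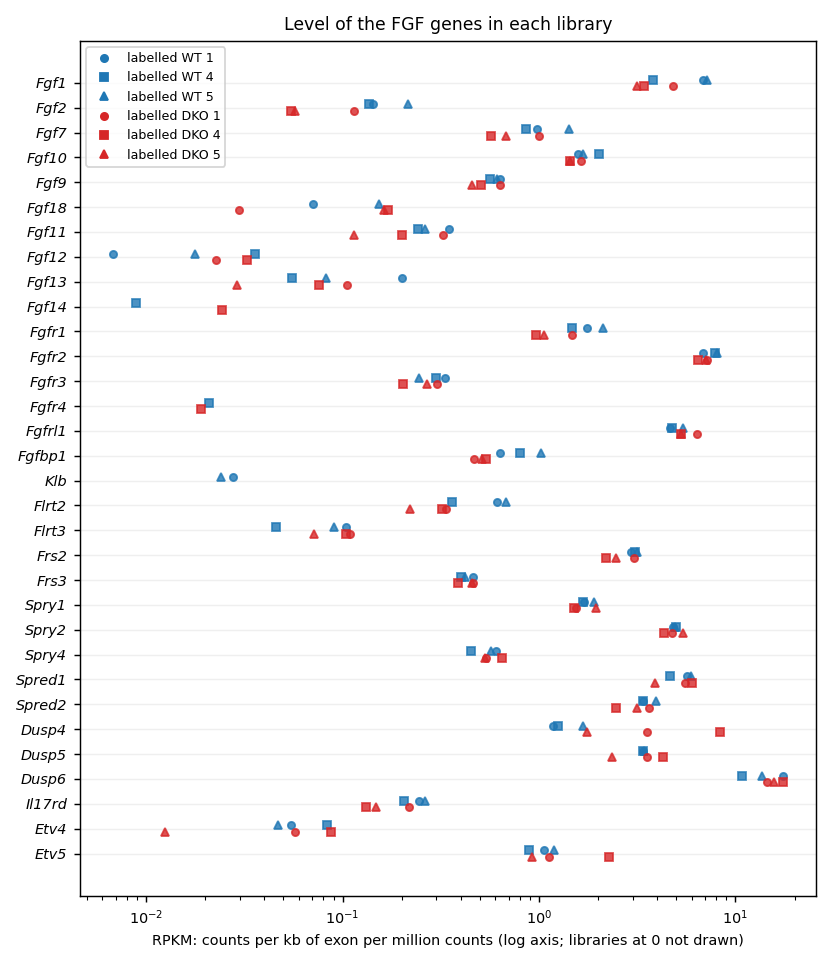
Level of each member in RPKM (counts per kilobase of exon, scaled to the library total), on a logarithmic axis, with 1 point per library. Dusp6 and Fgfr2 lead, and Fgf1 leads the ligands.

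Among the ligands, Fgf1 was the most abundant, with Fgf10 next at 1.63 ± 0.211 RPKM, Fgf7 at 0.917 ± 0.298 and Fgf9 at 0.569 ± 0.0728. Fgf1 encodes the acidic FGF, which binds all FGF receptors. It had 877, 549 and 962 normalized counts in WT 1, WT 4 and WT 5 and 709, 582 and 511 in DKO 1, DKO 4 and DKO 5. WT 1 and WT 5 were the highest libraries, but WT 4 fell among the DKO values, so the groups overlapped. Its log2 fold change was -0.41 (SE 0.20, 95% interval -0.79 to -0.02, unadjusted p = 0.0408, DESeq2 adjusted p = 0.327, edgeR 0.394, limma-voom 0.451). This result depended on which library was left out. Without WT 4 the log2 fold change was -0.61 and the DESeq2 adjusted p 0.0107 (4.47% of rows passed in that fit). Without WT 5 these values were -0.25 and 0.962. In the other fits with a library left out the adjusted p was 0.184 to 0.813.

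Fgf2, the basic FGF and the close relative of Fgf1, was measured at a low level of 0.120 RPKM. Its normalized counts were 22.8, 24.5 and 35.8 in the WT libraries and 20.9, 11.5 and 11.5 in the DKO libraries. All 3 WT values lay above all 3 DKO values, although WT 1 and DKO 1 lay close together. This gave a log2 fold change of -0.91 (SE 0.50, 95% interval -1.89 to 0.07, DESeq2 adjusted p = 0.423). Reads were unstranded, and 9.44% of Fgf2 exon sequence (640 bases) overlaps Nudt6 on the opposite strand, so reads from the overlap cannot be assigned to either gene.

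Fgf10 and Fgf7 are the ligands that act through the epithelial splice form of FGFR2. Fgf10 (chr13:118714699-118792573) showed normalized counts of 171, 245 and 188 in the WT libraries and 203, 206 and 197 in the DKO libraries. The DKO values all lay inside the WT range. Its log2 fold change of 0.01 had an SE of 0.19 and a 95% interval of -0.36 to 0.37 (DESeq2 adjusted p = 0.997). Fgf7 had 74.2, 73.4 and 113 in WT and 87.3, 57.5 and 65.7 in DKO, with WT 5 highest and the groups overlapping. The log2 fold change of Fgf7 was -0.31 (SE 0.29, 95% interval -0.88 to 0.27, adjusted p = 0.762).

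Fgf9, whose product signals mainly to the mesenchymal receptor forms, was nearly equal across the WT libraries. It had 69.3, 69.5 and 69.9 normalized counts in WT 1, WT 4 and WT 5 and 78.7, 73.2 and 63.4 in DKO 1, DKO 4 and DKO 5. The DKO libraries lay on both sides of the WT values (log2 fold change 0.05, SE 0.26, 95% interval -0.46 to 0.56, DESeq2 adjusted p = 0.975). Of the 10 secreted ligands listed, only 6 were tested, and their median log2 fold change was -0.15. As a share of the summed ligand level per length, Fgf1 made up 60.7% ± 8.05 in WT and 55.7% ± 2.84 in DKO (SD, n = 3), and Fgf10 19.2% ± 7.02 and 22.5% ± 2.28. These shares overlapped between groups.

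The remaining secreted ligands were at or near the limit of detection. Fgf18 had 2, 0 and 5 raw counts in the WT libraries and 1, 6 and 5 in the DKO libraries, and no adjusted p was given for it. Fgf16 and Fgf20, of the Fgf9 subfamily, Fgf22, of the Fgf7 subfamily, and Fgf21, an endocrine ligand, had 0 counts in each of the 6 libraries. A count of 0 allows up to 3 counts, which is 0.101 CPM (counts scaled to the library total) in the deepest library and 0.127 in the shallowest, and covers counting error only. Transcripts below that level were not detectable at this depth.

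The 4 FGF homologous factors, which stay inside the cell and bind voltage-gated sodium channels rather than FGF receptors, were also low. Fgf11 had 25, 20 and 22 raw counts in WT and 28, 18 and 9 in DKO, Fgf13 had 3 to 19 counts per library, and Fgf12 had 0 to 6. Fgf14 had 1 count in WT 4, 3 in DKO 4 and 0 elsewhere. None of the 3 that were tested had an unadjusted p under 0.05, and log2 fold changes ran from -0.42 for Fgf13 to 0.09 for Fgf12. Fgf11 lies 5.27 Mb from the inactivated genes on chromosome 11, and Fgf18, Etv4 and Spred2 lie 30.7, 37.2 and 43.9 Mb away on the same chromosome.

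Among the receptors, Fgfr2 was the main kinase receptor of the gland, and Fgfr4, a receptor best known from liver, was close to 0. Fgfr2 (chr7:130162451-130266808) had 1652, 2136 and 2030 normalized counts in WT 1, WT 4 and WT 5 and 1990, 2071 and 2178 in DKO 1, DKO 4 and DKO 5. WT 1 was the lowest library and the other 5 lay close together. DKO over WT, its log2 fold change was 0.10 (SE 0.12, 95% interval -0.13 to 0.33, DESeq2 adjusted p = 0.835), the narrowest interval among the receptors. Counts are per gene and do not separate the epithelial and mesenchymal splice forms.

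Fgfr1 (chr8:25518759-25575718), which is known mainly from mesenchyme and also from epithelium, lay on the lower side in DKO. Normalized counts were 408, 381 and 512 in the WT libraries and 391, 296 and 314 in the DKO libraries. WT 5 was the highest and DKO 4 the lowest, and DKO 1 lay between WT 4 and WT 1, so the groups overlapped. Fgfr1 had a log2 fold change of -0.38 (SE 0.17, 95% interval -0.71 to -0.05, unadjusted p = 0.0261, DESeq2 adjusted p = 0.256), which ran from -0.51 to -0.24 with single libraries left out. With library totals as size factors, where 7.91% of rows passed, it was -0.61 with an adjusted p of 0.0294.

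Taken per length, Fgfr2 made up 78.4% ± 2.65 of the summed level of the 4 kinase receptors in WT and 82.9% ± 2.40 in DKO (SD, n = 3). Fgfr1 made up 18.5% ± 2.82 in WT and 13.9% ± 2.21 in DKO. The Fgfr2 to Fgfr1 ratio was 4.34 ± 0.880 in WT and 6.07 ± 1.04 in DKO, and its ranges, 3.79 to 5.35 and 4.87 to 6.69, overlapped. The difference was 0.49 on the log2 scale, with a two-sided exact permutation p of 0.2 over all 20 splits. With 3 libraries against 3 this test cannot give a p below 0.1. Fgfr3 held few reads, at 43.0 to 57.9 normalized counts per library, and its log2 fold change was 0.05 (SE 0.31, adjusted p = 0.978). Fgfr4 had 2 raw counts in WT 4, 2 in DKO 4 and 0 in the others, and was not tested.

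Fgfrl1 (chr5:108694229-108706950) encodes a receptor that binds FGFs and heparan sulfate but lacks a tyrosine kinase domain. It came nearest to the threshold of all members. It had 304, 348 and 367 normalized counts in WT 1, WT 4 and WT 5 and 473, 457 and 437 in DKO 1, DKO 4 and DKO 5. Each DKO library lay above each WT library, and the gap between the groups exceeded the SD of either (32.5 and 18.3). The difference was 0.42 on the log2 scale (SE 0.14, 95% interval 0.15 to 0.69, unadjusted p = 0.00201) and the adjusted p was 0.0558 in DESeq2, 0.147 in edgeR and 0.199 in limma-voom. Leaving out single libraries gave log2 fold changes of 0.35 to 0.48 and adjusted p of 0.0906 to 0.385. With library totals as size factors the log2 fold change was 0.19 (adjusted p = 0.453).

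**Figure D3:**
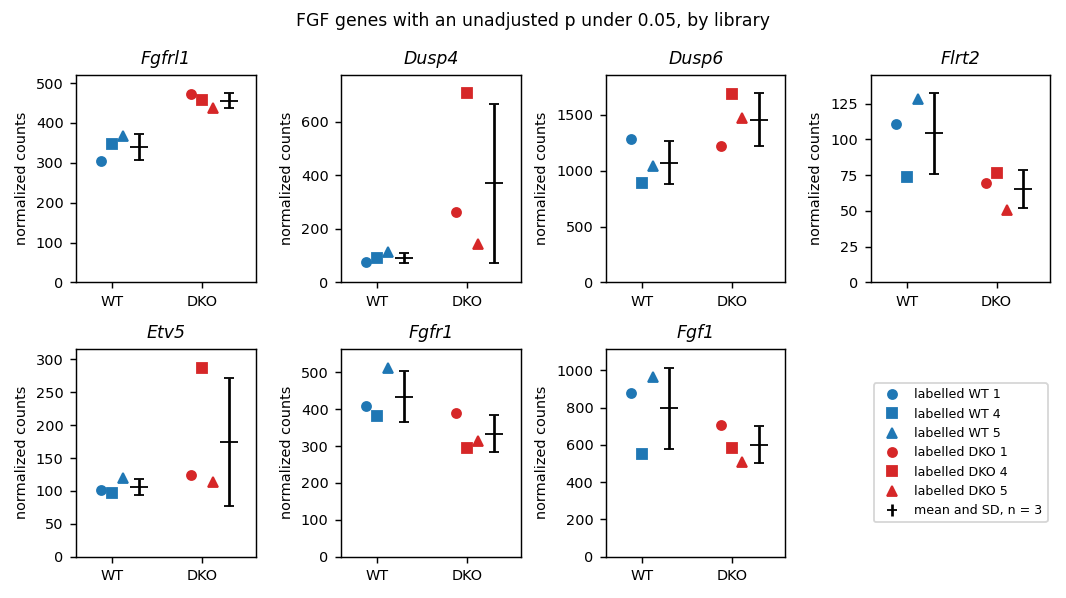
Normalized counts per library for the 7 members with an unadjusted p under 0.05, with the mean and SD of 3 libraries. Only Fgfrl1 and Dusp4 show groups without overlap, and DKO 4 stands apart for Dusp4 and Etv5.

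Of the co-factors, Flrt2 (chr12:95692006-95785215) encodes a membrane protein of a family that binds FGF receptors and Unc5 guidance receptors. It had 111, 73.4 and 128 normalized counts in the WT libraries and 69.3, 76.3 and 50.7 in the DKO libraries. WT 5 and WT 1 were highest, while WT 4 lay among the DKO values. The log2 fold change was -0.67 (SE 0.29, 95% interval -1.24 to -0.10, unadjusted p = 0.0221, DESeq2 adjusted p = 0.235), and it was -0.91 with an adjusted p of 0.0397 when library totals set the size factors. Fgfbp1, a carrier that releases FGFs from the matrix, had 28.5 to 56.4 normalized counts per library (log2 fold change -0.46, SE 0.36, adjusted p = 0.679). Flrt3 had 5.87 to 15.7 (0.50, SE 0.64, adjusted p = 0.853). Klb, the co-receptor of endocrine FGFs, had 3, 0 and 3 raw counts in WT and 0 in each DKO library, which is at the floor of 3 counts, and no fold is given.

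Frs2, the docking protein that links the receptors to the ERK cascade, was the most abundant adaptor at 2.81 ± 0.389 RPKM. Normalized counts of Frs2 were 601, 709 and 676 in WT and 714, 596 and 641 in DKO, with the highest and the lowest library both labelled DKO. Frs2 had a log2 fold change of -0.03 (SE 0.13, 95% interval -0.28 to 0.23, DESeq2 adjusted p = 0.974). Its relative Frs3 had 33.6, 33.3 and 32.2 in WT and 38.9, 37.6 and 42.7 in DKO. The Frs3 groups did not overlap, but the difference was smaller than its DESeq2 SE (log2 fold change 0.26, SE 0.35, adjusted p = 0.860). Frs3 also shares 16.3% of its exon sequence with Frs3os on the opposite strand.

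The feedback inhibitors and target transcription factors leaned to the higher side in DKO without passing the threshold. Of these 11 genes, 10 had a positive log2 fold change, Etv4 among them at 0.00, and the median was 0.21, beside 50.2% of all rows and a median of 0.0011. None was called by DESeq2, edgeR or limma-voom, and 3, Dusp4, Dusp6 and Etv5, had an unadjusted p under 0.05 on the higher side, where 4.92% of all rows did. With library totals as size factors 4 of the 11 were positive and the median was -0.02, beside 19.2% of all rows and a median of -0.23. DKO 4 was the highest library for 7 of the 11, where it was highest for 25.0% of all rows tested. Without DKO 4, 7 of the 11 were positive and the median was 0.16.

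Dusp4 (chr8:34807610-34819894) encodes a nuclear phosphatase of ERK, JNK and p38. It had 75.2, 90.0 and 113 normalized counts in WT 1, WT 4 and WT 5 and 262, 706 and 144 in DKO 1, DKO 4 and DKO 5. All 3 DKO libraries lay above all 3 WT libraries, but the DKO values themselves ran from 144 to 706. The log2 fold change of Dusp4 was 2.0 (SE 0.67, 95% interval 0.68 to 3.32, unadjusted p = 0.00292) with an adjusted p of 0.0692 in DESeq2, 0.163 in edgeR and 0.264 in limma-voom. It passed the threshold in both fits that dropped 1 of the extreme DKO libraries. Without DKO 4, where 0.929% of rows passed, it was 1.13 with an adjusted p of 0.0481, and without DKO 5, where 0.906% passed, it was 2.38 with an adjusted p of 2.42e-07. Without WT 1 it was 1.87 with an adjusted p of 0.452.

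Dusp6 (chr10:99263231-99267489) encodes the cytoplasmic phosphatase of ERK and is a common readout of FGF signalling. It had 1280, 894 and 1044 normalized counts in the WT libraries and 1216, 1685 and 1468 in the DKO libraries. DKO 4 and DKO 5 were highest, and WT 1 lay above DKO 1. Its log2 fold change was 0.44 (SE 0.16, 95% interval 0.13 to 0.75, unadjusted p = 0.00507, DESeq2 adjusted p = 0.0972). Dropping WT 1 gave 0.59 with an adjusted p of 0.0472 (0.83% of rows passed) and dropping DKO 1 gave 0.56 with 0.0279 (4.06% of rows passed), both past the threshold, while dropping DKO 4 gave 0.32 with 0.497. With library totals as size factors it was 0.19 (adjusted p = 0.500).

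Etv5 (chr16:22381313-22439570) and Etv4 encode ETS transcription factors induced by FGF receptor signalling. Etv5 had 102, 96.8 and 119 normalized counts in WT 1, WT 4 and WT 5 and 124, 287 and 113 in DKO 1, DKO 4 and DKO 5. DKO 4 stood far above the others, DKO 1 just above WT 5, and DKO 5 below WT 5. For Etv5 the log2 fold change was 0.72 (SE 0.32, 95% interval 0.09 to 1.36, unadjusted p = 0.0252, DESeq2 adjusted p = 0.251). Leaving out DKO 4 gave 0.16. Etv4 was barely detected, with 4, 7 and 4 raw counts in WT and 5, 8 and 1 in DKO, and its log2 fold change of 0.00 had an SE of 1.02.

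The Sprouty and SPRED genes inhibit the RAS to ERK step. Spry2, the most abundant Sprouty, had 236 to 274 normalized counts in WT and 268 to 336 in DKO (log2 fold change 0.21, SE 0.16, adjusted p = 0.660). Spry4 had 67.3, 56.7 and 66.3 in WT and 68.3, 95.1 and 74.9 in DKO, with DKO 1 just above WT 1 (0.32, SE 0.27, adjusted p = 0.708). Spry1 (0.15), Spred1 (0.16), Spred2 (0.01) and Dusp5 (0.24) had SEs of 0.15 to 0.22 and adjusted p of 0.754 or more. Il17rd, also called Sef, was the 1 gene of the 11 with a negative value (-0.29, SE 0.30, adjusted p = 0.786). Antisense transcripts overlap 24.4% of Spry1 and 22.1% of Dusp5 exon sequence, and their reads cannot be told apart.

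**Figure D4:**
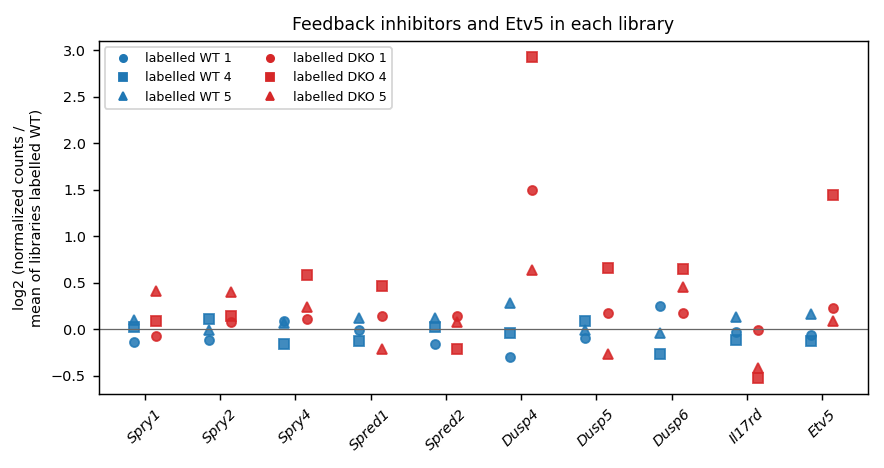
Log2 ratio of each library's normalized counts to the WT mean, for 9 feedback inhibitors and Etv5. DKO 4 is the highest library for 6 of the 10 genes drawn, and farthest for Dusp4 and Etv5.

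**Figure D5:**
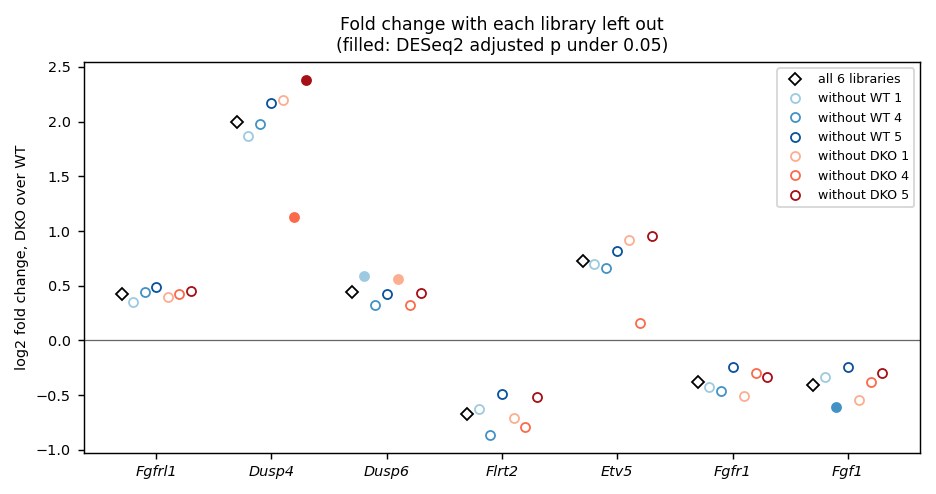
Log2 fold change, DKO over WT, of the 7 members with an unadjusted p under 0.05, with all libraries (diamonds) and with each library left out (circles, filled where the DESeq2 adjusted p was under 0.05). Filled circles appear for Dusp4, Dusp6 and Fgf1, and Etv5 is nearest to 0 without DKO 4.

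Other genes of the pathway were counted from lists. Of 24 genes that carry the signal from the receptor to ERK and AKT, all were tested and 1 fell, Pik3r1, the regulatory subunit of PI3-kinase (5766 ± 95.7 normalized counts in WT, 4737 ± 275 in DKO, log2 fold change -0.28, adjusted p = 0.0322 in DESeq2, 0.225 in edgeR and 0.219 in limma-voom), where 1.88% of all rows fell. Of 10 ERK response genes, 9 were tested and 1 rose, Phlda1 (1039 ± 102 and 1403 ± 79.0, log2 fold change 0.43, adjusted p = 0.00925 in DESeq2, 0.147 in edgeR and 0.179 in limma-voom), where 1.02% of all rows rose. Neither call held in edgeR or limma-voom. Gm28592 on the opposite strand overlaps 33% of Phlda1 exon sequence, and reads from the overlap cannot be assigned to either gene. With single libraries left out, Pik3r1 passed in 2 of 6 fits (not without WT 1, WT 4, WT 5 or DKO 5) and Phlda1 in 3 of 6 (not without WT 1, DKO 4 or DKO 5). Median log2 fold changes of these lists were -0.04 and -0.0050.

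Of 10 genes for heparan sulfate assembly and editing, all were tested and 0 were called by DESeq2, edgeR or limma-voom, with 1 at an unadjusted p under 0.05. That gene was Sulf1, which removes 6-O-sulfates outside the cell (148 and 89.3 normalized counts, log2 fold change -0.73, adjusted p = 0.0902), named after its value was seen. Among 13 other FGF ligands and co-factors, 12 had a row, 4 were tested and 0 were called by any of the 3 tools, with 0 at an unadjusted p under 0.05. The ligands Fgf3, Fgf4, Fgf5, Fgf6, Fgf8, Fgf15, Fgf17 and Fgf23 had at most 3 counts in every library.

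Fgf21 is also known as a target of the stress transcription factor ATF4, and 8 other ATF4 targets were counted beside it. The 8 were chosen with earlier results of these data known, so their count of calls is no test of the list. Of these 8, 5 rose, Chac1, Trib3, Psat1, Mthfd2 and Sesn2, where 1.02% of all rows rose. Their log2 fold changes were 1.21 to 3.06 with DESeq2 adjusted p of 0.0390 or less, while Fgf21 stayed at 0 counts in all libraries. Only Sesn2 passed in each of the 6 fits with a library left out, and edgeR and limma-voom called 0 of the 8. The summed normalized counts of the 8 genes were 4128 to 5955 in WT and 7440 to 17013 in DKO, with DKO 4 highest. DKO 4 was the highest library for 25.0% and the lowest for 22.6% of all rows tested.

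Of the summed cell type markers, only the myoepithelial and immune sums did not overlap between the groups. The part of cell type content in the values above was not tested. In bulk tissue, fewer cells of a type and less RNA per cell cannot be told apart. The summed normalized counts of 8 myoepithelial markers were 10494 to 11351 in WT and 5736 to 7654 in DKO, and 6 of the 8 fell. Those of 8 fibroblast markers were 11223 to 16055 in WT and 8456 to 12052 in DKO, and 2 of the 8 fell. WT 5 was the highest library for the fibroblast sum and for 7 of the 29 members tested, where it was highest for 15.2% of all rows. These members were Fgf1, Fgf2, Fgf7, Fgfr1, Fgfbp1, Flrt2 and Il17rd. The 8 acinar markers summed to 311300 to 342943 in WT and 323641 to 479540 in DKO, 2 rose, and DKO 4 was highest. Immune markers summed to 2429 to 6900 in WT and 959 to 2331 in DKO (4 of 8 fell), and 4 of 8 duct markers fell although the duct sums overlapped. These calls are from DESeq2, which had 2 markers higher and 16 lower, where 1.02% of all rows were higher and 1.88% lower. In contrast, edgeR called only Klk1b24 and limma-voom only Klk1b21 and Klk1b24, all on the lower side. No endothelial, nerve, adipocyte or skeletal muscle marker was called by DESeq2, edgeR or limma-voom, with 3 at an unadjusted p under 0.05, all endothelial.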

How the data were processed

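RNA was sequenced from SMGs of female mice, 3 WT and 3 DKO, with unstranded Nextera XT libraries on a HiSeq2500. The submitters' processing notes name STAR 2.5.2a, DESeq2, edgeR and limma and the builds GRCh38, GRCm38 and mm10, without their roles; the counting tool and annotation are not given in the sources used here. The deposited counts are raw whole numbers for each gene symbol, and the unfiltered table of 43280 rows was used. A filtered count table and a table of normalized signal were not used.

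Rows with at least 10 counts over the 6 libraries (18606) were tested in R 4.3.3 with DESeq2 1.42.0, the test the study's methods name (Wald test, two-sided, median-of-ratios size factors, unshrunken fold changes, default filters, Benjamini-Hochberg adjustment over all rows, threshold 0.05). edgeR 4.0.16, limma 3.58.1 (voom), other size factors, other filters, fits without single libraries and a fit with the replicate number as a block were alternatives. Of these, only the default DESeq2, edgeR and limma-voom fits were tested on simulated data first. Intervals are at 95%. The labels do not say which animals the numbered libraries came from, so p-values measure the spread between these libraries. Library depth set the limit of 3 counts used for genes at 0. Full values are given for members with an unadjusted p under 0.05, members the study's text names and the most abundant member of each role; the rest are summarised. Exon lengths and overlaps came from GENCODE M21, gene positions and promoters from RefSeq GRCm38.p6, which had promoter entries for 29 of the 36 members. The members and lists were chosen with earlier results of these data known.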

Additional observations from a re-analysis of the deposited data

How the results depend on the processing

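None of the 29 members tested was called with edgeR, limma-voom, TMM factors, no count filter, a filter of at least 10 counts in at least 3 libraries, independent filtering off, Cook's filter off or the replicate block. With library totals as size factors 3 members passed on the lower side, Fgf1 (-0.64), Fgfr1 (-0.61) and Flrt2 (-0.91). That scaling also turned the direction of Fgf10 (-0.22), Fgf9 (-0.18), Fgf12 (-0.12), Fgfr2 (-0.13), Fgfr3 (-0.18), Spry1 (-0.086), Spry2 (-0.024), Spred1 (-0.081), Spred2 (-0.21), Dusp5 (-0.00074) and Etv4 (-0.23). With limma-voom, Fgf12 (-0.21) and Etv4 (-0.19) turned negative. The cause was not tested.

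With single libraries left out, 0 to 1 members passed on the higher side and 0 to 1 on the lower side. Some log2 fold changes crossed 0 in these fits, from -0.10 to 0.17 for Fgf10, -0.023 to 0.13 for Fgf9, -0.54 to 0.095 for Fgf11, -0.71 to 0.87 for Fgf12, -0.75 to 0.22 for Fgf13, -0.0030 to 0.18 for Fgfr2, -0.067 to 0.16 for Fgfr3, -0.10 to 0.034 for Frs2, -0.022 to 0.32 for Spred1, -0.061 to 0.11 for Spred2, -0.026 to 0.44 for Dusp5 and -0.67 to 0.45 for Etv4.

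Over all rows, 189 were higher and 350 lower in DKO, against 5 and 5 with edgeR, 3 and 4 with limma-voom and 62 and 1410 with library totals. Leaving out single libraries gave 56 to 306 higher and 90 to 574 lower. The other pathway lists and the ATF4 target list held 7 calls together, 5 of them ATF4 targets. These 7 became 0 with edgeR, 0 with limma-voom, 13 with library totals and 1 to 9 with libraries left out. The count of calls thus depends on the tool, on the scaling and on each library.

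The library numbers are shared by both groups, and no pairing by number was seen. Deviations from the group means correlated at -0.13, -0.02 and -0.26 for numbers 1, 4 and 5 over 11489 genes, and no library correlated best with its own number. With 3 libraries per group these correlations depend on one another and cannot show whether libraries of the same number share an origin. With the number as a block, 209 rows were lower and 134 higher. That fit called 8 genes of the other pathway and ATF4 target lists and 0 members, and Fgf12 (-0.26) and Etv4 (-0.24) turned negative.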
